A study of Mus musculus with 6 samples.

Results

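The genes of DNA replication origins and forks form a set of 51, chosen by name for their known roles and found through their gene identifiers among the 18446 genes measured. All 51 had a row, and all 51 passed the filter used for counts, a mean of 1 FPKM or more over the 6 libraries, as did 10347 genes in all. FPKM counts fragments relative to transcript length and to the library's mapped fragments. RNA was sequenced from naive CD4+ T cells of C57BL/6 mice aged 6 to 8 weeks, isolated from spleen and lymph nodes and sorted by flow cytometry. The groups were Zak-/- cells and wild-type (WT) cells, each taken at 0, 6 or 48 h of culture with anti-CD3 and anti-CD28, antibodies that trigger the T cell receptor and its costimulatory receptor. The labels speak of deficiency conditional on T cells but name no Cre driver and no number of mice per library. Each of the 6 groups had 1 library, so no difference has a replicate check, no test was made, and no error can be attached to any value.

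Chromosomal replication starts at origins. The origin recognition complex (ORC), with Cdc6 and Cdt1, loads the MCM helicase onto DNA in G1 phase, and geminin blocks reloading after S phase has begun. The kinase Cdc7 with Dbf4, then Mcm10, Cdc45 and the GINS complex, turn the loaded helicase into a moving fork. There polymerases, the clamp PCNA and its loader, and nucleases and ligases copy both strands. Resting lymphocytes are known for an incomplete set of these proteins and assemble it between antigen receptor engagement and S phase.

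Zak is the kinase encoded by Map3k20, and its level was the check of the labels. Map3k20 had 0.10, 0.10 and 1.61 FPKM at 0, 6 and 48 h in the libraries labelled Zak-deficient, against 0.17, 0.19 and 1.35 FPKM in WT. At 48 h the library labelled Zak-deficient was thus the higher of the pair, so each direction between genotypes below rests on the label alone. The summed FPKM of the 6 CD4 T cell markers lay between 1649 and 1732 in the 6 libraries, and the 2 CD8 markers summed to between 8.88 and 12.8 FPKM. The 5 B cell markers summed to between 3.27 and 7.25 FPKM and the 7 myeloid markers to between 4.26 and 12.0 FPKM. The NK cell markers summed to at most 1.70 FPKM, the erythroid markers to at most 2.6 FPKM and the dendritic cell markers to at most 1.79 FPKM. FPKM is a share of a library, and in such bulk RNA fewer cells of a type and less RNA per cell cannot be told apart.

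Promoter sequences are shown first, as a description. Some of the members' promoters hold words of the kind bound by E2F factors, which are known to regulate S phase genes. Any part of E2F factors in the levels at 48 h was not tested. RefSeq windows of 300 bases (250 before to 50 after the annotated start, GRCm38.p6) were found for 41 of the 51 members. The E2F-type words searched were TTTCCCGC, TTTCGCGC, TTTGCCGC and TTTGGCGC, on both strands, and a pair of them can overlap on opposite strands. At least 1 was found in 16 of 41 members (39.0%), against 428 of 8400 filtered genes with a window (5.10%) and 704 of 27025 genes with a window (2.61%). Among members 4-fold or more higher at 48 h in both genotypes, 9 of 21 (42.9%) held a word, against 7 of 20 (35%) of the other members. The CCAAT box was found in 24 of 41 members (58.5%), against 44.1% of the filtered genes and 41.1% of all. The word TTTGAA, the core of an element known from mitotic genes, was found in 7 of 41 members (17.1%), against 14.4% of the filtered genes and 20.2% of all. A match is a string of letters and not a measured binding site, and a window without one says nothing about the factor.

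Windows of 6 members are printed on the gene's strand with E2F-type words and CCAAT or its reverse complement ATTGG in capitals. Mcm5 (chr8:75109259-75109558, plus strand) and Mcm6 (chr1:128359656-128359955, minus strand) encode helicase subunits, and in each a pair of overlapping E2F-type words makes 1 longer run.
Mcm5: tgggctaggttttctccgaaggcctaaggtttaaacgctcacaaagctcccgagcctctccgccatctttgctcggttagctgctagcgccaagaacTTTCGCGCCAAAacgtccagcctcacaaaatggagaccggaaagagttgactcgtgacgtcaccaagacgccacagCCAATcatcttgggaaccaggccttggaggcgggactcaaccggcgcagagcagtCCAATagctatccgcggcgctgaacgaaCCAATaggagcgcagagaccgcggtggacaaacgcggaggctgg
Mcm6: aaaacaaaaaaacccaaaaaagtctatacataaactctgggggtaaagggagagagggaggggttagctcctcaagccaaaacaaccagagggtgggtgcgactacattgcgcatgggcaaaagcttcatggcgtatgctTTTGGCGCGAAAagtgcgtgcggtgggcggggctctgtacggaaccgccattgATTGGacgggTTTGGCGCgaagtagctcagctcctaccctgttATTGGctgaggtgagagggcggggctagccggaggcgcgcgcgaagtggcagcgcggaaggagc
Cdc6 (chr11:98907901-98908200, plus strand) and Orc3 (chr4:34614893-34615192, minus strand) each held the word TTTCCCGC once, as its reverse complement in Cdc6 and in the forward sense in Orc3. Cdc6 was far higher at 48 h than at 0 h, and Orc3 was flat.
Cdc6: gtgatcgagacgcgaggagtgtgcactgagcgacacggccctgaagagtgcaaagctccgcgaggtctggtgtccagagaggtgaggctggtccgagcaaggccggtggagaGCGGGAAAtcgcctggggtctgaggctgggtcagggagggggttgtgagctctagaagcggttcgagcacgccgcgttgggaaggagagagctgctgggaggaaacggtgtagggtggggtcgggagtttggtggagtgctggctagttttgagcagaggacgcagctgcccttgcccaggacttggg
Orc3: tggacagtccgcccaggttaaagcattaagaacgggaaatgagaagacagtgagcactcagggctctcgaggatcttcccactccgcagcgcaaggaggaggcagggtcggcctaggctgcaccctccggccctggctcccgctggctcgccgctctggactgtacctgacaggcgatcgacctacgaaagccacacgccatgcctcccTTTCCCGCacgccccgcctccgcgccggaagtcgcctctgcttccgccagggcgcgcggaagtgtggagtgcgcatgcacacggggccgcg
Cdc45 (chr16:18811923-18812222, minus strand), whose level had one of the largest changes, and Pcna (chr2:132253131-132253430, minus strand), the most abundant member, held ATTGG and none of the E2F-type words in this window.
Cdc45: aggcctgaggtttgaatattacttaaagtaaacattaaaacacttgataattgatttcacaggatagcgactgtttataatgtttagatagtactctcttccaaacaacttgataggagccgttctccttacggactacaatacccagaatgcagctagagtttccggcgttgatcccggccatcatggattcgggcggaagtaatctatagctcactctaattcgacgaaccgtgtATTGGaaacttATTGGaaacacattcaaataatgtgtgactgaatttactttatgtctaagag
Pcna: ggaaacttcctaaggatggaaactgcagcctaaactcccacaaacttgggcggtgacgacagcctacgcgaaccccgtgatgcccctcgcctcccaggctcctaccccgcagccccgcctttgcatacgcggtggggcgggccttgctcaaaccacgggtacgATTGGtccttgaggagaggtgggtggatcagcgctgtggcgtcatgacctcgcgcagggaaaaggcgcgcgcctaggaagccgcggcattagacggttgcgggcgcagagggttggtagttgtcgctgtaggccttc

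Replication genes were low or moderate in resting cells, little moved at 6 h and far higher at 48 h. The members' summed level was 749, 757 and 3182 FPKM at 0, 6 and 48 h in the libraries labelled Zak-deficient and 743, 809 and 3194 FPKM in WT. As a share of all FPKM in the library this was 0.151%, 0.149% and 0.583% in the libraries labelled Zak-deficient and 0.148%, 0.151% and 0.592% in WT. The median member had 10.5, 10 and 38.3 FPKM in the libraries labelled Zak-deficient and 10.9, 10.8 and 39.5 FPKM in WT. Both 48 h libraries thus stood apart from the other 4, which lay close together.

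**Figure D1:**
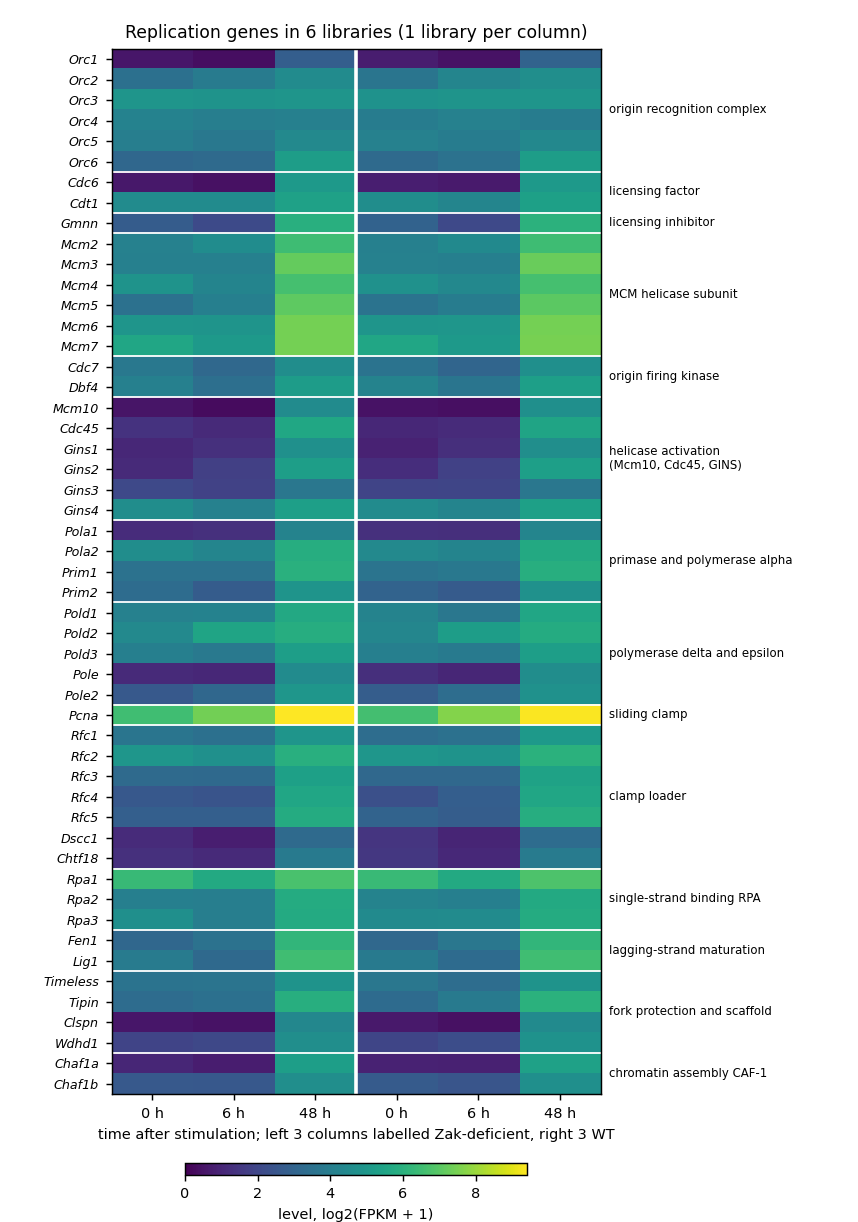
Levels of the 51 members, log2(FPKM + 1), by role (rows) in 6 libraries (columns: 0, 6 and 48 h, the libraries labelled Zak-deficient left and WT right of the white line). The 48 h columns are brighter in most rows, Pcna is the brightest row, and Orc3 and Orc4 keep nearly 1 colour throughout.

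At 48 h against 0 h, 43 of 51 members were 2-fold or more higher in the libraries labelled Zak-deficient, where 18.5% of all filtered genes were. In WT cells it was 44 of 51, where 17.8% of all filtered genes were. No member was 2-fold or more lower, where 12% of all filtered genes in the libraries labelled Zak-deficient and 12.3% in WT were. Folds and log2 values here are on FPKM + 1, which makes the change of a low gene look smaller. The median member stood 2.11 above its 0 h value on the log2 scale in the libraries labelled Zak-deficient and 2.01 above it in WT, where the medians of all filtered genes were 0.06 in the libraries labelled Zak-deficient and 0.00 in WT. In both genotypes at once, 42 members passed 2-fold, with a background of 16.4%, and 26 passed 4-fold, with a background of 5.38%.

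Against 6 h, 44 members were 2-fold or more higher at 48 h in the libraries labelled Zak-deficient (10.8% of all filtered genes) and 46 in WT (9.32%). Between 0 h and 6 h the count was 1 in each genotype. It was Pold2 in the libraries labelled Zak-deficient, where 9.08% of all filtered genes were 2-fold or more higher, and Pcna in WT, where 8.94% were. No member was 2-fold or more lower at 6 h, where 1.52% of all filtered genes in the libraries labelled Zak-deficient and 1.39% in WT were, although with a pseudocount of 0.1 FPKM Gmnn in WT was, at -1.03. The 2 single calls at 6 h lay close to the 2-fold line and fell below it under another pseudocount or scaling.

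**Figure D2:**
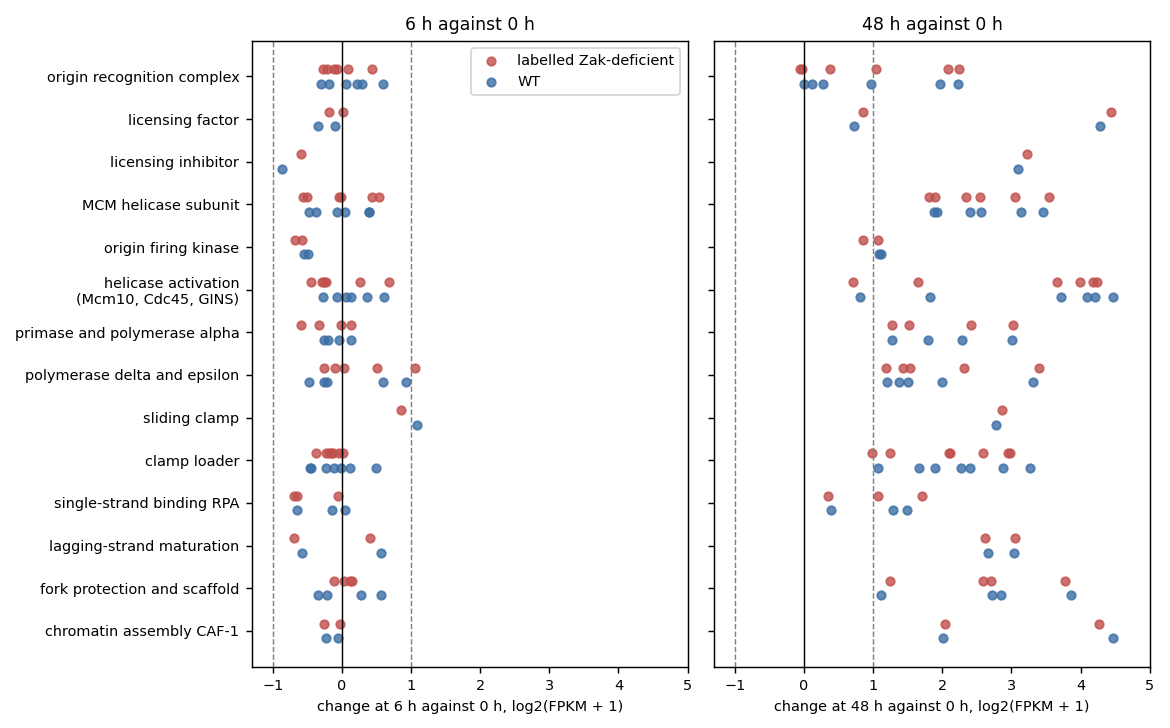
Change of each member at 6 h (left panel) and 48 h (right panel) against 0 h, on log2(FPKM + 1), by role, with points for libraries labelled Zak-deficient drawn above those for WT. Dashed lines mark 2-fold: at 6 h nearly all points lie between them, and at 48 h most lie to the right, with Orc3, Orc4, Orc5 and Rpa1 near 0.

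Origin recognition genes fell into steep ones (Orc1, Orc6) and flat ones (Orc3, Orc4, Orc5). Orc1, the large ATPase subunit that is known to cycle in proliferating mammalian cells, had 0.48, 0.28 and 6.02 FPKM at 0, 6 and 48 h in the libraries labelled Zak-deficient, against 0.68, 0.36 and 6.89 FPKM in WT. It was the lowest ORC gene in all 6 libraries, and the lowest of all members at 48 h, and its log2 change at 48 h was 2.25 in the libraries labelled Zak-deficient and 2.23 in WT. Orc6, a small subunit, had 7.87, 8.43 and 36.4 FPKM in the libraries labelled Zak-deficient, against 8.66, 10.8 and 36.7 FPKM in WT. It was the highest ORC gene at 48 h in both genotypes. Orc2, a core subunit, had 10.3, 14.1 and 22.2 FPKM in the libraries labelled Zak-deficient, against 11.8, 18.3 and 23.9 FPKM in WT. Its log2 change at 48 h was 1.05 in the libraries labelled Zak-deficient and 0.96 in WT. Orc2 thus lay at the 2-fold line, just above it in the libraries labelled Zak-deficient, where 5 of the alternatives put it below, and just below it in WT. Orc3 had 29.3, 27.8 and 28.7 FPKM in the libraries labelled Zak-deficient, against 26.9, 28.2 and 29.1 FPKM in WT. Orc4 had 16.9, 15.5 and 16.2 FPKM in the libraries labelled Zak-deficient, against 14.3, 16.8 and 14.3 FPKM in WT. Orc5, a further core subunit, had 15.5, 12.6 and 20.4 FPKM in the libraries labelled Zak-deficient, against 16.7, 14.5 and 20.3 FPKM in WT. None of the 3 was 2-fold apart between any pair of times. The ratio of the highest to the lowest ORC gene was therefore 61.0, 99.1 and 6.05 at 0, 6 and 48 h in the libraries labelled Zak-deficient and 39.6, 78.3 and 5.32 in WT. Of all members, 14 overlap another protein-coding gene of the table, namely Orc1, Orc3, Orc4, Mcm7, Cdc45, Gins2, Pold2, Pole2, Rfc4, Chtf18, Rpa1, Fen1, Lig1 and Chaf1a. No source used here says whether the counting used strand, so reads of such pairs could be shared and these levels are uncertain to that extent.

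The loading factors were of opposite kinds. Cdc6, the ATPase that joins ORC to load the helicase, had 0.52, 0.34 and 32.1 FPKM at 0, 6 and 48 h in the libraries labelled Zak-deficient, against 0.73, 0.62 and 32.7 FPKM in WT. Its log2 change at 48 h was 4.44 in the libraries labelled Zak-deficient, the largest of any member there, and 4.28 in WT. Cdt1, which brings the helicase to ORC, had 22.3, 22.5 and 40.97 FPKM in the libraries labelled Zak-deficient, against 23.5, 18.4 and 39.5 FPKM in WT. It was well expressed in resting cells and passed 2-fold at 48 h against 0 h in neither genotype. Gmnn, which encodes geminin, the inhibitor of Cdt1, had 5.62, 3.38 and 60.7 FPKM in the libraries labelled Zak-deficient, against 6.70, 3.23 and 64.6 FPKM in WT. Gmnn was lower at 6 h than at 0 h, then the higher of the pair at 48 h. Cdt1 stood above Gmnn by 3.97 and 6.66 times at 0 and 6 h in the libraries labelled Zak-deficient and by 3.51 and 5.68 times in WT. At 48 h Gmnn stood above Cdt1 by 1.48 times in the library labelled Zak-deficient and by 1.63 times in WT.

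While Mcm5 was the median member at 0 h in both genotypes, the MCM helicase genes were among the most abundant members at 48 h. Their summed level was 146, 134 and 814 FPKM at 0, 6 and 48 h in the libraries labelled Zak-deficient and 146, 135 and 827 FPKM in WT. Mcm5 had 10.5, 15.8 and 134 FPKM in the libraries labelled Zak-deficient, against 10.9, 14.5 and 129.6 FPKM in WT. It was the lowest of the 6 genes at 0 and 6 h and the one with the largest log2 change at 48 h, 3.55 in the libraries labelled Zak-deficient and 3.46 in WT. Mcm7 had 46.4, 32.3 and 176 FPKM in the libraries labelled Zak-deficient, against 46.7, 33.3 and 180.3 FPKM in WT, and was the highest of the 6 in every library. Mcm3 had 16.4, 16.2 and 143 FPKM in the libraries labelled Zak-deficient, against 16.7, 15.8 and 154 FPKM in WT. Mcm6 had 29.2, 28.4 and 174 FPKM in the libraries labelled Zak-deficient, against 29.03, 29.9 and 175 FPKM in WT. Mcm6 nearly equalled Mcm7 at 48 h, and Mcm2 and Mcm4 were the lowest then. The log2 change at 48 h was 2.34 for Mcm2 and 1.80 for Mcm4 in the libraries labelled Zak-deficient, and 2.40 for Mcm2 and 1.88 for Mcm4 in WT. The ratio of the highest to the lowest of the 6, whose products form a hexamer with 1 copy of each, was 4.40, 2.05 and 1.97 in the libraries labelled Zak-deficient and 4.30, 2.29 and 2.04 in WT. At 6 h Mcm2 and Mcm5 were 1.25-fold or more higher than at 0 h in both genotypes, and Mcm4 and Mcm7 were 1.25-fold or more lower.

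**Figure D3:**
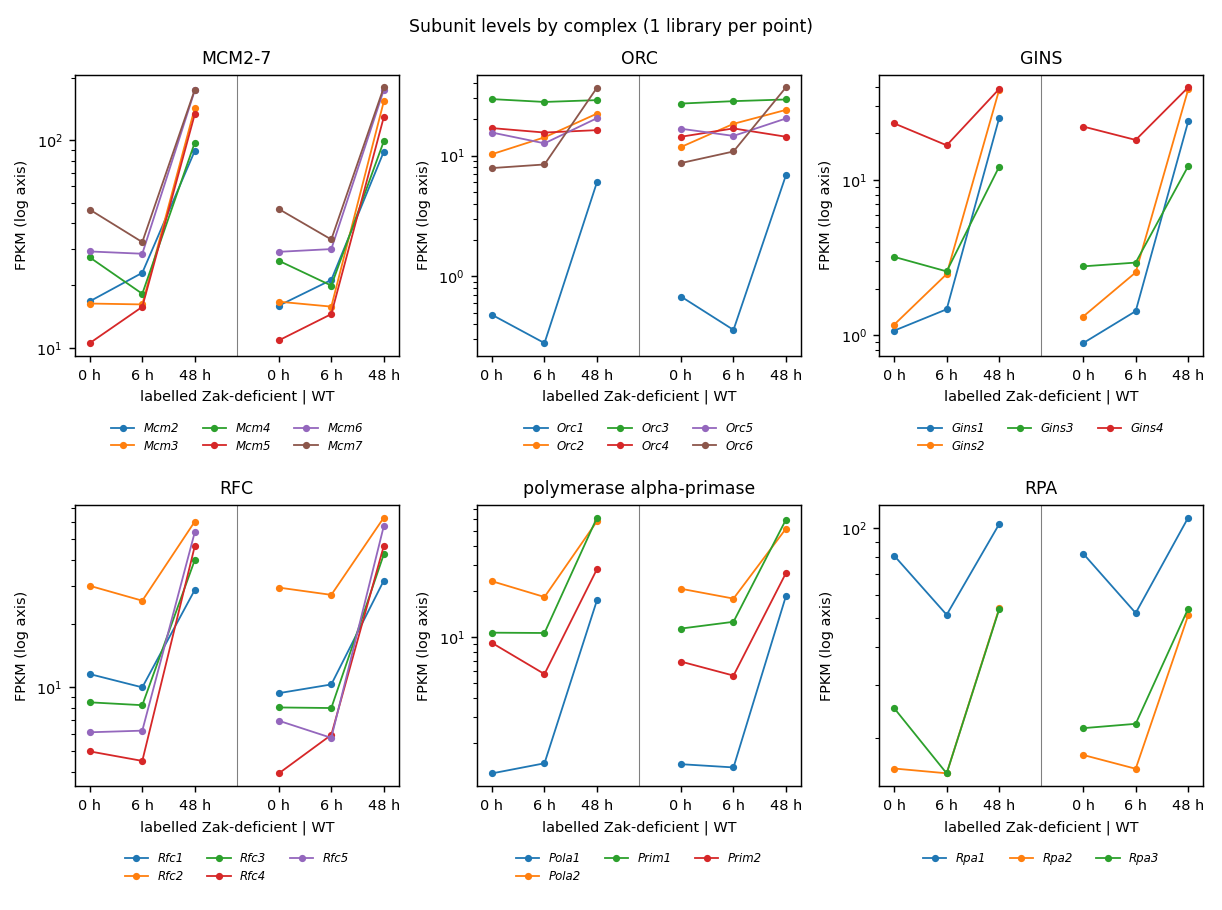
FPKM (log axis) of the subunit genes of 6 complexes at 0, 6 and 48 h, 1 library per point, with the libraries labelled Zak-deficient left and WT right in each panel; lines join points of 1 gene. In each panel the subunits lie closer together at 48 h than at 0 h, with Orc1 and Gins3 still below the rest of their complex.

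Helicase activation genes held some of the largest changes. The kinase genes Cdc7 and Dbf4 were moderate: Dbf4, the regulatory subunit, had 16.3, 9.88 and 35.5 FPKM in the libraries labelled Zak-deficient, against 17.6, 11.7 and 38.5 FPKM in WT. Both kinase genes were 1.25-fold or more lower at 6 h than at 0 h in both genotypes, and lay near 2-fold at 48 h. The log2 change at 48 h was 0.86 for Cdc7 and 1.07 for Dbf4 in the libraries labelled Zak-deficient, and 1.11 for Cdc7 and 1.08 for Dbf4 in WT. Mcm10, which helps to start unwinding, had 0.46, 0.20 and 22.1 FPKM in the libraries labelled Zak-deficient, against 0.38, 0.31 and 24.6 FPKM in WT. Cdc45, the partner of the helicase at the fork, had 1.62, 1.18 and 48.3 FPKM in the libraries labelled Zak-deficient, against 1.07, 1.26 and 44.7 FPKM in WT. Its log2 change at 48 h was 4.23 in the libraries labelled Zak-deficient and 4.46 in WT. GINS, the other partner in the active helicase, was uneven. Gins2 had 1.17, 2.48 and 38.3 FPKM in the libraries labelled Zak-deficient, against 1.32, 2.54 and 38.4 FPKM in WT. Gins4 had 23.2, 16.8 and 38.7 FPKM in the libraries labelled Zak-deficient, against 22.2, 18.2 and 39.6 FPKM in WT. Gins4 was thus the highest GINS gene at each time and had the smallest change at 48 h, 0.71 in the libraries labelled Zak-deficient and 0.81 in WT, below 2-fold. Gins1 had 1.07, 1.47 and 25.1 FPKM in the libraries labelled Zak-deficient, against 0.89, 1.43 and 23.9 FPKM in WT. Gins3 had 3.20, 2.58 and 12.2 FPKM in the libraries labelled Zak-deficient, against 2.78, 2.94 and 12.3 FPKM in WT, and was the lowest GINS gene at 48 h. The ratio of the highest to the lowest GINS gene was 21.7, 11.4 and 3.17 in the libraries labelled Zak-deficient and 24.9, 12.7 and 3.22 in WT.

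Among polymerases, the catalytic subunit genes Pola1 and Pole were low in resting cells and their accessory subunit genes Pola2 and Pole2 were higher. Pola1, the catalytic subunit of polymerase alpha, had 1.27, 1.48 and 17.5 FPKM in the libraries labelled Zak-deficient, against 1.46, 1.39 and 18.7 FPKM in WT. Its accessory subunit Pola2 had 23.4, 18.4 and 57.97 FPKM in the libraries labelled Zak-deficient, against 20.8, 17.95 and 51.9 FPKM in WT. The log2 change at 48 h was 3.03 for Pola1 and 1.28 for Pola2 in the libraries labelled Zak-deficient, and 3.0 for Pola1 and 1.28 for Pola2 in WT. Prim1, the catalytic primase subunit, had 10.7, 10.7 and 61.2 FPKM in the libraries labelled Zak-deficient, against 11.4, 12.6 and 59.5 FPKM in WT, and was nearly flat at 6 h. Pole, the catalytic subunit of polymerase epsilon, which copies the leading strand, had 1.20, 1.06 and 22.1 FPKM in the libraries labelled Zak-deficient, against 1.44, 1.03 and 23.3 FPKM in WT. Its partner Pole2 had 5.21, 7.81 and 29.9 FPKM in the libraries labelled Zak-deficient, against 5.87, 9.41 and 26.3 FPKM in WT. Pole2 was higher at 6 h than at 0 h in both genotypes, and Pole was slightly lower. Of polymerase delta, the lagging-strand enzyme, the 3 member genes Pold1, Pold2 and Pold3 were already even at rest. They lay within 1.31 times of each other in the library labelled Zak-deficient and 1.20 times in WT. Pold4, its small subunit gene, is outside the set and was higher at 0 h, with 65.7 FPKM in the library labelled Zak-deficient and 61.02 FPKM in WT. Pold2, an accessory subunit, had 20.8, 44.1 and 57.4 FPKM in the libraries labelled Zak-deficient, against 18.8, 36.7 and 54.9 FPKM in WT. Its log2 change was 1.05 at 6 h and 1.42 at 48 h in the libraries labelled Zak-deficient, and 0.93 at 6 h and 1.5 at 48 h in WT, so most of it was present at 6 h. Pold1, the catalytic subunit, had 16.7, 17.1 and 50.1 FPKM in the libraries labelled Zak-deficient, against 17.5, 12.3 and 46.9 FPKM in WT. Pold3, a further accessory subunit, had 15.8, 13.1 and 37.3 FPKM in the libraries labelled Zak-deficient, against 15.7, 13.4 and 37.3 FPKM in WT. Neither was 1.25-fold or more above its 0 h level at 6 h in either genotype.

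Pcna, the sliding clamp that tethers polymerases, was the most abundant member in every library. It had 92.5, 168 and 682 FPKM at 0, 6 and 48 h in the libraries labelled Zak-deficient, against 95.6, 204 and 659.5 FPKM in WT. Like Pold2 it was already higher at 6 h, by 0.85 in the libraries labelled Zak-deficient and 1.08 in WT on the log2 scale, and it was higher again at 48 h. Pcna made up 12.4%, 22.2% and 21.4% of the members' summed FPKM in the libraries labelled Zak-deficient and 12.9%, 25.2% and 20.7% in WT. Without it the sum was 656, 589 and 2499.9 FPKM in the libraries labelled Zak-deficient and 648, 605 and 2534 FPKM in WT. The sum of the other 50 members was thus lower at 6 h than at 0 h, but such a sum follows its most abundant genes. Rpa1 alone went from 80.8 to 51.4 FPKM in the libraries labelled Zak-deficient and from 82.1 to 52.1 FPKM in WT. Of all 51 members, 25 were below 0 h at 6 h in both genotypes. Reads of Pcna may be shared with pseudogene copies that have no row in the table.

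Of the clamp loader genes, Rfc2 was the highest in every library. Rfc4, a small subunit, had 4.99, 4.50 and 46.4 FPKM in the libraries labelled Zak-deficient, against 3.93, 5.97 and 46.5 FPKM in WT, the largest change at 48 h of the 5 core loader genes. Rfc4 overlaps Eif4a2, which had 331, 241 and 199 FPKM in the libraries labelled Zak-deficient and 307, 296 and 203 FPKM in WT. Eif4a2, like Rfc4, was higher at 0 h and lower at 6 h under the Zak-deficient label, and its part in the values of Rfc4 was not tested. Rfc5, another small subunit, had 6.14, 6.25 and 53.9 FPKM in the libraries labelled Zak-deficient, against 6.96, 5.78 and 57.6 FPKM in WT. Rfc1, the large subunit, had 11.6, 10 and 28.8 FPKM in the libraries labelled Zak-deficient, against 9.39, 10.3 and 31.9 FPKM in WT, and was the lowest of the 5 at 48 h. The 5 core genes lay within 2.10 times of each other at 48 h in the library labelled Zak-deficient and 1.98 times in WT, while at 0 h the ratio was 6.03 in the library labelled Zak-deficient and 7.52 in WT. The alternative loader genes Dscc1 and Chtf18, which load the clamp in sister chromatid cohesion, had 1.25, 0.73 and 8.58 FPKM and 1.45, 1.20 and 13.7 FPKM in the libraries labelled Zak-deficient, against 1.71, 0.97 and 9.03 FPKM and 1.85, 1.10 and 14.1 FPKM in WT. Both remained among the lower members at 48 h.

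RPA coats single-stranded DNA. Rpa1, its large subunit, had 80.8, 51.4 and 103 FPKM in the libraries labelled Zak-deficient, against 82.1, 52.1 and 108 FPKM in WT. It was next to Pcna at rest, lower at 6 h, and little above its resting level at 48 h. Rpa2 had 15.8, 15.2 and 53.97 FPKM in the libraries labelled Zak-deficient, against 17.5, 15.8 and 51.2 FPKM in WT, and the log2 change at 48 h was 1.71 in the libraries labelled Zak-deficient and 1.49 in WT. Rpa3, the small subunit, had 25.1, 15.2 and 53.6 FPKM in the libraries labelled Zak-deficient, against 21.5, 22.3 and 53.9 FPKM in WT. At 6 h it was below its 0 h value under the Zak-deficient label and near it in WT. On the lagging strand, Fen1, the flap nuclease, had 7.82, 10.7 and 71.8 FPKM in the libraries labelled Zak-deficient, against 7.97, 12.3 and 72.8 FPKM in WT. Lig1, the ligase that seals Okazaki fragments, had 14.1, 8.29 and 91.2 FPKM in the libraries labelled Zak-deficient, against 13.7, 8.83 and 91.6 FPKM in WT. These enzymes of adjoining steps differed in sign at 6 h in both genotypes, Fen1 above and Lig1 below 0 h, and both stood far above 0 h at 48 h.

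Fork protection genes were uneven at rest. Clspn, which encodes claspin, the mediator of fork speed and checkpoint signals, had 0.50, 0.39 and 19.5 FPKM in the libraries labelled Zak-deficient, against 0.56, 0.34 and 21.7 FPKM in WT. Timeless had 11.04, 11.3 and 27.6 FPKM in the libraries labelled Zak-deficient, against 12.1, 9.37 and 27.5 FPKM in WT. Its binding partner Tipin had 9, 10.02 and 59.1 FPKM in the libraries labelled Zak-deficient, against 8.86, 13.6 and 63.6 FPKM in WT. The partners lay within 1.37 times of each other at 0 h in both genotypes, and Tipin stood above Timeless by 2.14 times in the library labelled Zak-deficient and 2.31 times in WT at 48 h. Wdhd1, which links the helicase with polymerase alpha, had 2.81, 3.13 and 23.9 FPKM in the libraries labelled Zak-deficient, against 2.88, 3.71 and 26.9 FPKM in WT. For the chromatin assembly factor CAF-1, which places new histones behind the fork, Chaf1a had 1, 0.68 and 37.5 FPKM in the libraries labelled Zak-deficient, against 0.88, 0.80 and 40.4 FPKM in WT. Chaf1b had 5.13, 5.03 and 24.1 FPKM in the libraries labelled Zak-deficient, against 5.48, 4.54 and 25.1 FPKM in WT. Chaf1b was the higher of the pair at 0 and 6 h and Chaf1a at 48 h, in both genotypes.

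Members already expressed at rest had smaller changes at 48 h. Classes here go by the higher of the 2 values at 0 h. The 12 members below 2 FPKM in both 0 h libraries had a median log2 change at 48 h of 3.71 in the libraries labelled Zak-deficient and 3.79 in WT. The 12 with 2 to 10 FPKM had 2.45 in the libraries labelled Zak-deficient and 2.49 in WT. The 15 with 10 to 20 FPKM had 1.25 in the libraries labelled Zak-deficient and 1.38 in WT, and the 12 at 20 FPKM or above had 1.17 in the libraries labelled Zak-deficient and 1.28 in WT. All filtered genes of the same classes had medians of 1.03, 0.17, -0.02 and -0.19 in the libraries labelled Zak-deficient and 0.93, 0.07, -0.04 and -0.19 in WT. The class and the change share the 0 h value, so an order of this kind is partly built in, as the order over all genes also shows. Orc1, Cdc6, Mcm10 and Clspn stayed below 1 FPKM in all 0 h and 6 h libraries.

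At 6 h the members were split, and fewer stood above 0 h than below it. In both genotypes, 25 of 51 members (49.0%) were below their 0 h level at 6 h and above it at 48 h, where 9.68% of all filtered genes were. These shares differ through the 48 h condition, since 49 members (96.1%) and 46.9% of all filtered genes were then above 0 h in both genotypes. Below 0 h at 6 h in both genotypes were the same 25 members and 47.8% of all filtered genes, so the members were near the background at 6 h. Some of the 25 lay near 0, such as Mcm3, at -0.01 in the libraries labelled Zak-deficient, and Rfc3, at -0.01 in WT. Another 12 (23.5%) were above their 0 h level at both times in both genotypes, where 30.4% of all filtered genes were. Of the 25, 20 lay below 0 h at 6 h under every scaling and GC centring tried, while a pseudocount cannot change a sign. At 6 h 8 members were 1.25-fold or more below 0 h in both genotypes, namely Gmnn, Mcm4, Mcm7, Cdc7, Dbf4, Dscc1, Rpa1 and Lig1, with a background of 22.8%. Another 8 were 1.25-fold or more above, namely Orc2, Mcm2, Mcm5, Gins2, Pold2, Pole2, Pcna and Fen1, with a background of 21.6%. These 16 had the same sign at 6 h after GC centring and under each scaling. Scaling moved the median of all filtered genes at 6 h against 0 h little, at the widest by -0.08 in WT. Both shares of 51 lie below their backgrounds, and the median member at 6 h stood at -0.11 in the libraries labelled Zak-deficient and -0.08 in WT, close to the -0.08 in the libraries labelled Zak-deficient and -0.06 in WT of all filtered genes.

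Between the genotype labels the members differed little, as did most filtered genes. No member was 2-fold or more apart at any time, where 0.271% of all filtered genes were at 0 h, 0.251% at 6 h and 2.23% at 48 h. At such small shares, the absence of a member past 2-fold is near the background. The largest member difference was 1.29-fold before stimulation, 1.43-fold after 6 h and 1.13-fold after 48 h. The median size of the difference was 0.10, 0.11 and 0.07 on the log2 scale at 0, 6 and 48 h for the members and 0.08, 0.14 and 0.09 for all filtered genes. With 1 library per group, neither the differences nor their absence can be set against a spread.

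**Figure D4:**
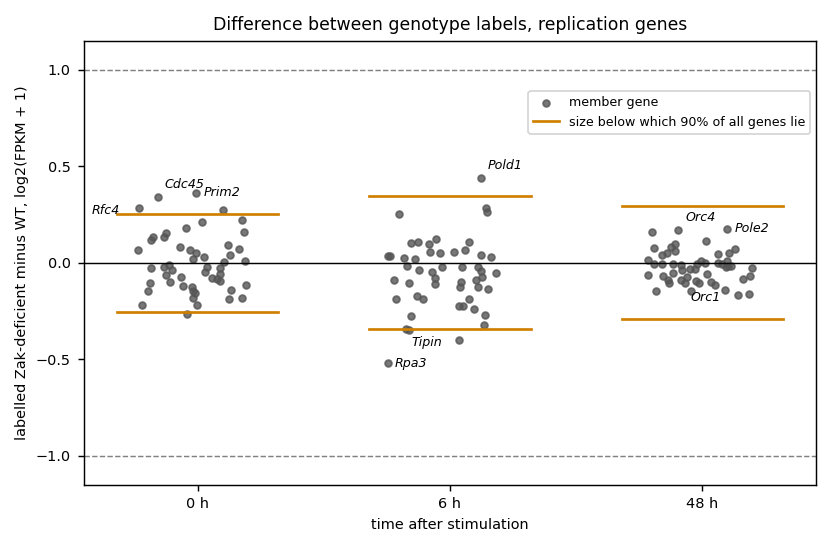
Difference of each member, libraries labelled Zak-deficient minus WT on log2(FPKM + 1), at 0, 6 and 48 h (horizontal jitter only separates points); dashed lines mark 2-fold and orange lines the size below which 90% of all filtered genes lie. The points at 48 h lie within the orange lines, and Rpa3, Tipin and Pold1 lie farthest out at 6 h.

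In resting cells the largest differences were higher under the Zak-deficient label. Prim2, the large primase subunit, had 9.17 FPKM in the library labelled Zak-deficient, against 6.91 FPKM in WT, a log2 difference of 0.36. Cdc45 had 1.62 FPKM in the library labelled Zak-deficient, against 1.07 FPKM in WT, a difference of 0.34, between levels close to the pseudocount. Neither gene kept a difference of that size at 6 h, where they stood at 0.03 and -0.05.

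At 6 h Rpa3 had 15.2 FPKM in the library labelled Zak-deficient, against 22.3 FPKM in WT, the largest difference of any member, -0.52. Tipin had 10.02 FPKM in the library labelled Zak-deficient, against 13.6 FPKM in WT, a difference of -0.40. Pold1 had 17.1 FPKM in the library labelled Zak-deficient, against 12.3 FPKM in WT, a difference of 0.44. Orc2, Rfc4, Orc6 and Pcna were also lower under the Zak-deficient label, with log2 differences of -0.35, -0.34, -0.32 and -0.28, and Cdt1, Pold2 and Timeless were higher, with 0.28, 0.26 and 0.25. These 10 signs at 6 h held after GC centring. They also held under each scaling, which moved the median of all filtered genes there by at most 0.07, and a pseudocount cannot change a sign. At 48 h the 10 genes lay between -0.10 and 0.09. Cdc6, not among the 10, stood at -0.27 at 6 h, a larger size than those of Pold2 and Timeless. Its levels there were low, 0.34 FPKM in the library labelled Zak-deficient and 0.62 FPKM in WT.

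The 6 h differences moved with the GC content of the transcripts. Across the 51 members, which share the same 2 libraries, Pearson's r between GC content of the longest coding transcript and the difference was 0.69 and Spearman's rho 0.63, against 0.43 and 0.48 across 10211 filtered genes. At 0 h and 48 h Pearson's r over the members was -0.18 and 0.11. Of the 17 members of lowest GC (36.8% to 46.5%), 15 were lower under the Zak-deficient label at 6 h, with a median of -0.22. In the middle 17 (46.7% to 50.6%) 10 were lower, with a median of -0.02, and in the top 17 (50.9% to 60.7%) 7 were, with a median of 0.03. Rpa3 had 40.4% GC, Tipin 40.8% and Pold1 60.7%. After centring on GC, which was added after the data were seen, Rpa3 stood at -0.37, Tipin at -0.25 and Pold1 at 0.24. The part of GC content in the 6 h differences was not tested beyond this.

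**Figure D5:**
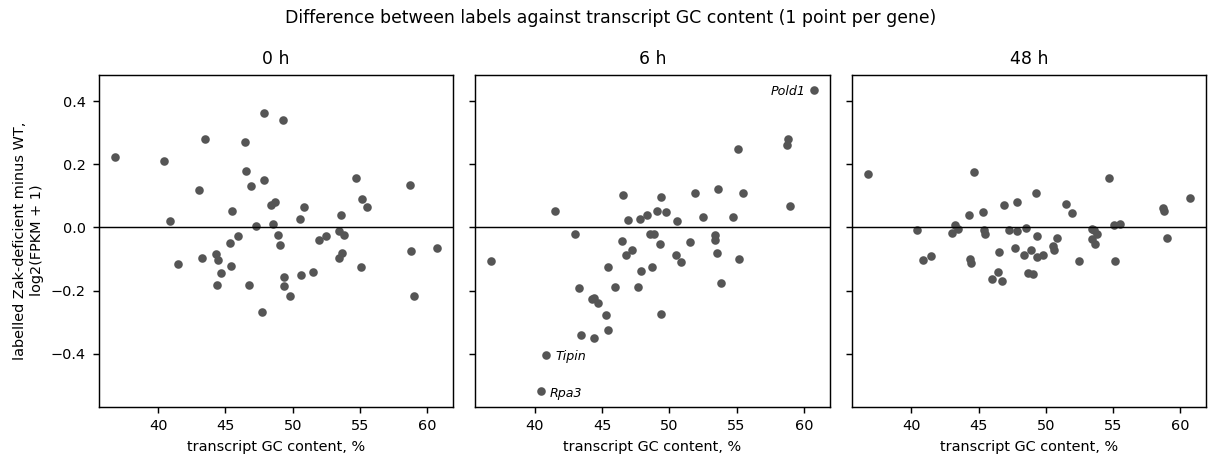
Difference of each member, libraries labelled Zak-deficient minus WT on log2(FPKM + 1), against GC content of its longest coding transcript (percent), 1 panel per time. The points climb from lower left (Rpa3, Tipin) to upper right (Pold1) at 6 h, with r = 0.69, and have no such slope at 0 h or 48 h.

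At 48 h, when the members were highest, the largest differences were those of Pole2 and Orc4, at 0.18 and 0.17, and of Orc1, at -0.17. The libraries labelled Zak-deficient were lower for 35 of 51 members (68.6%), where 53.9% of all filtered genes were lower, and the median member stood at -0.02, against -0.01 for all filtered genes. Of the 51 signs at 48 h, 29 held under every alternative, 27 of them below 0 and 2 above 0. Scaling by median of ratios moved the median of all filtered genes in this comparison by -0.16. Across all 3 times 5 members (9.80%) were higher under the Zak-deficient label, namely Mcm2, Gins1, Pola2, Prim2 and Pold2, against 11.1% of all filtered genes. Another 11 (21.6%) were lower at all 3, against 16.4%, namely Orc1, Orc2, Orc6, Cdc6, Mcm7, Dbf4, Gins2, Dscc1, Rpa1, Fen1 and Wdhd1. Neither list held whole under every alternative. Only 2 members in all kept a sign above 0 at 48 h. Under a common sum Mcm7, Gins2 and Rpa1 were above 0 at 6 h, at 0.04, 0.03 and 0.06.

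The difference of responses, Zak-deficient minus WT, shares the 0 h libraries with the comparison at 0 h, and no member reached 2-fold at 6 h or 48 h, where 0.58% and 1.78% of all filtered genes did. At such small shares a count of 0 in 51 is near the background. At the 1.5-fold rule 2 of 51 members passed at 6 h, both lower under the Zak-deficient label. No share of all filtered genes was computed at that rule, so this count has no background. The difference at 6 h was -0.73 for Rpa3, -0.62 for Rfc4 and 0.50 for Pold1. At 48 h the widest difference of any member was that of Rfc1, -0.41, with a change of 1.25 in the libraries labelled Zak-deficient and 1.66 in WT.

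Replication genes outside the set were divided. Of 26 other replication genes, 11 were 2-fold or more higher at 48 h in the libraries labelled Zak-deficient and 11 in WT, and none was lower, with medians of 0.88 in the libraries labelled Zak-deficient and 0.75 in WT. Of all filtered genes, 18.5% were higher and 12% lower in the libraries labelled Zak-deficient, against 17.8% higher and 12.3% lower in WT. Dtl, which encodes the adaptor that targets Cdt1 for destruction, had 0.30, 0.18 and 25.7 FPKM at 0, 6 and 48 h in the libraries labelled Zak-deficient, against 0.23, 0.33 and 26.8 FPKM in WT. The log2 change at 48 h in WT was 3.29 for Ticrr, which brings Cdc45 to origins, and 2.95 for Recql4, a helicase of replication start. Pold4, the small subunit of polymerase delta, had 65.7, 44.9 and 43.4 FPKM in the libraries labelled Zak-deficient, against 61.02, 46.4 and 44.8 FPKM in WT. Pold4 was thus highest at 0 h, unlike Pold1, Pold2 and Pold3, and Kat7 and Mcmbp were the other genes at the low end, at -0.46 and -0.25 in WT.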

How the data were processed

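The values were FPKM as deposited by the authors, 1 per gene and library, given to 2 decimals for 18446 genes. The submitters' processing notes name Bowtie, RSEM and mm10. Their versions and settings, and whether strand was used, are not given in the sources used. RSEM shares ambiguous fragments between genes, so whole reads could not be recovered and depth per library is unknown. FPKM summed to between 496045 and 546113 per library, and 1777 to 2793 genes were listed at 0.

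Gene identifiers were matched to RefSeq symbols (18326 of 18446). Differences were taken on log2(FPKM + 1), unscaled, and counted at 2-fold or more among the 10347 genes that averaged at least 1 FPKM in the 6 libraries. No group had a replicate, so no test was made. No column of another sample had to be left out. Alternatives were a pseudocount of 0.1 or 5 FPKM, no filter or a mean of 5 FPKM, a common FPKM sum, median of ratios or upper quartile, a 1.5-fold or 4-fold rule, and, added after the data were seen, centring on GC in 20 bins. GC content came from the longest protein-coding transcript in GENCODE. Promoter windows came from RefSeq (GRCm38.p6). The scripts were tested on simulated data and ran in Python 3.11.15 with pandas 2.3.3, numpy 2.4.6 and matplotlib 3.10.9.

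The members, the other lists and the choices above were made with earlier results of these data known. All members could be named, and from each other list the 3 genes highest and 3 lowest at 48 h in WT, with Map3k20, Mki67 and Top2a. Genes of the annotation that overlap a member, and pseudogenes, were named after their values were seen. A list of naive state markers is not reported here.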

Additional observations from a re-analysis of the deposited data

Results flagged for a closer look

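At 6 h, 4 members moved in opposite directions from 0 h under the 2 genotype labels, by at least 0.1 on the log2 scale each way. No share of all filtered genes was computed under this rule, so the count has no background. With 1 library per group the difference was not tested, and the values below are the response under the Zak-deficient label minus that in WT. Rfc4, a clamp loader subunit, had -0.62, from a response of -0.12 in the libraries labelled Zak-deficient and 0.50 in WT. Cdc45, the helicase partner, had -0.39, from -0.27 in the libraries labelled Zak-deficient and 0.13 in WT, at levels near 1 FPKM. Orc4, a core subunit of the origin recognition complex, had -0.33, from -0.12 in the libraries labelled Zak-deficient and 0.22 in WT. Rfc1, the large clamp loader subunit, had -0.31, from -0.19 in the libraries labelled Zak-deficient and 0.12 in WT. The gap between labels (Zak-deficient minus WT) was wider at 0 h than at 6 h for 3 of the 4 genes: 0.34 at 0 h and -0.05 at 6 h for Cdc45, 0.27 at 0 h and -0.04 at 6 h for Rfc1, and 0.22 at 0 h and -0.11 at 6 h for Orc4. For Rfc4 it was 0.28 at 0 h and -0.34 at 6 h. Under the other pseudocounts, scalings and GC centring the WT response was as low as 0.04 for Cdc45 and 0.04 for Rfc1. After GC centring the response in the libraries labelled Zak-deficient was above 0 for Orc4, at 0.18, and Rfc4, at 0.04, and the gap at 6 h was above 0 for Orc4, at 0.07, and Rfc1, at 0.01.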

How the results depend on the processing

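No paired analysis was possible because each group had 1 library and the labels gave no replicate numbers, and for the same reason no library could be left out. Depth is unknown, so no limit of detection is given. Of 3654 values of single members recomputed, 27 dropped below 2-fold and 9 passed it. Of those past 2-fold, 0 changed direction. A filter leaves a value as it is and a pseudocount cannot change its direction, so only scaling and GC centring could have done so. The shifts by scaling given below are small beside 2-fold, so this 0 says little. The count at 6 h, 1 higher in each genotype, was in the libraries labelled Zak-deficient 2 higher with a pseudocount of 0.1 FPKM, 0 with one of 5 FPKM, 0 with upper quartile scaling, 9 at 1.5-fold (3 higher and 6 lower), 0 at 4-fold and 2 higher after GC centring. In WT it was 2 with a pseudocount of 0.1 FPKM (1 higher and 1 lower, which was Gmnn at -1.03), 0 with a common sum, 7 at 1.5-fold (5 higher and 2 lower), 0 at 4-fold and 2 higher after GC centring. Of all filtered genes at 6 h, 16.7% were 1.5-fold or more higher and 13.3% lower in the libraries labelled Zak-deficient. In WT 17% were higher and 13% lower. At 4-fold 2.4% were higher in the libraries labelled Zak-deficient and 2.28% in WT. At 4-fold, 26 members were higher at 48 h against 0 h in WT, where 5.89% of all filtered genes were. Against 6 h 29 were in the libraries labelled Zak-deficient (3.37% of all filtered genes) and 29 in WT (3.24%). At 1.5-fold, 2 members differed in their 6 h response, both with the lower one under the Zak-deficient label, again with no background computed. The cause was not tested where a scaling or pseudocount moved a count, while a lower or higher fold rule moves counts by construction. The counts at 48 h against 0 h at 2-fold lay, apart from the other fold rules, between 40 and 44 in the libraries labelled Zak-deficient and 40 and 45 in WT. Scaling moved the median of all filtered genes by over 0.1 on the log2 scale in 3 cases: a common sum by -0.12 at 48 h against 0 h in the libraries labelled Zak-deficient, and median of ratios by -0.14 at 48 h against 6 h in the libraries labelled Zak-deficient and by -0.16 between genotypes at 48 h. The split of all filtered genes past 2-fold moved at 6 h against 0 h in WT, with 7.83% higher and 2.7% lower under a common sum (8.94% and 1.39% unscaled), between genotypes at 6 h, with 15 genes higher and 8 lower under a common sum (12 and 14 unscaled), and at 48 h against 6 h in the libraries labelled Zak-deficient, with 8.94% higher and 8.54% lower under median of ratios (10.8% and 6.55% unscaled). Under median of ratios the members' median between genotypes at 48 h was -0.19.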

Other observations

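Genes that serve the replicating chromosome but are outside the set also stood higher at 48 h, though not all by 2-fold. Of 13 genes of S phase chromatin and histone supply, 11 were 2-fold or more higher at 48 h than at 0 h in the libraries labelled Zak-deficient and 10 in WT, with medians of 2.14 in the libraries labelled Zak-deficient and 2.07 in WT on the log2 scale. Of all filtered genes, 18.5% in the libraries labelled Zak-deficient and 17.8% in WT were as much higher, and the same shares are the background of the lists below. Uhrf1, which brings maintenance methylation to new DNA, had 1.10, 1.64 and 109.9 FPKM at 0, 6 and 48 h in the libraries labelled Zak-deficient, against 0.99, 1.73 and 110.3 FPKM in WT. Esco2, the cohesin acetyltransferase of S phase, had a log2 change of 4.30 in WT and Asf1b, a histone chaperone, of 3.86. For its paralog Asf1a it was 0.45.

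Of 8 checkpoint genes, 2 were 2-fold or more higher at 48 h in the libraries labelled Zak-deficient and 1 in WT, where 18.5% of all filtered genes in the libraries labelled Zak-deficient and 17.8% in WT were, so the list was near the background. The medians were 0.25 in the libraries labelled Zak-deficient and 0.17 in WT. Chek1, the checkpoint kinase, had 0.35, 0.40 and 16.7 FPKM in the libraries labelled Zak-deficient, against 0.31, 0.59 and 16.6 FPKM in WT. Rad1, a subunit of the checkpoint clamp, stood at 39.1 FPKM after 48 h in the library labelled Zak-deficient, against 24.6 FPKM in WT, a log2 difference of 0.65.

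Of 8 proliferation genes, 7 were 2-fold or more higher at 48 h in each genotype, and Rb1, which restrains E2F factors, was 2-fold or more lower in each. Rb1 had 30.9, 17.8 and 12.6 FPKM in the libraries labelled Zak-deficient, against 27.96, 15.7 and 13.2 FPKM in WT. Mki67, the Ki-67 gene, had 0.80, 0.33 and 75.2 FPKM in the libraries labelled Zak-deficient, against 0.51, 0.28 and 92.6 FPKM in WT, and Top2a, a topoisomerase of dividing cells, had 1.13, 1 and 135 FPKM in the libraries labelled Zak-deficient, against 1.28, 1.02 and 156 FPKM in WT. At 48 h the 8 genes, as deposited, were lower under the Zak-deficient label, as were a majority of all filtered genes (share given above). Their median was -0.09, a size like the median size over all filtered genes, and they ranged from -0.30 for Mki67 to -0.02 for E2f2. In the same libraries the members' median difference was -0.02 and that of all filtered genes -0.01. With 1 library per group, a difference in these genes was not tested.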
